A study of Mus musculus with 8 samples.

Results

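Selectin ligand and sialic acid glycosyltransferase genes are described here in follicular and non-follicular CD4 T cells of immunized peripheral lymph nodes (pLN). The set holds 9 genes given by name, namely Selplg, Fut7, Gcnt1, St3gal4, St3gal6, St3gal1, St6gal1, St8sia1 and St8sia6, out of 29924 gene names on the array. All 9 were found, with 15 probes among them, and all 9 were well above background on each of the 8 arrays. The cells came from mice of the strain B6.Cg-Foxp3<tm1Mal>, in which Foxp3 expressing cells carry EGFP, and every group shared this allele and a s.c. immunization with KLH and alum. Lymph node cells of 8 to 15 mice of both sexes, aged 8 to 14 weeks, were pooled by the authors and sorted at d12 or d25 post immunization (p.i.). Naïve CD4 T cells were EGFP- PD1- GL7-, TFH cells EGFP- PD1hi GL7+, Treg cells EGFP+ PD1- GL7- and TFR cells EGFP+ PD1hi GL7+/-. Each cell type (naïve CD4 T cells are called naïve cells below) was hybridized once per day with 25 ng of RNA, which gives 2 arrays for a cell type and no replicate within a day. The sort of naïve CD4 T cells rests on the absence of these markers and can hold other Foxp3- cells, and the TFR gate includes cells with and without GL7.

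PSGL-1, the product of Selplg, is a mucin-like protein of leukocytes that binds selectins only after its sugars have been finished. On its O-glycans, GCNT1 builds the branch, ST3GAL4 and ST3GAL6 are the sialyltransferases that cap the chain, and FUT7 adds the fucose that completes sialyl Lewis x, the selectin-binding epitope of activated T cells. ST3GAL1 sialylates the unbranched chain and thus uses the same substrate as GCNT1, ST6GAL1 caps N-glycans, and ST8SIA1 and ST8SIA6 add a further sialic acid to gangliosides and to O-glycans, respectively. In resting T cells PSGL-1 is abundant and also binds the chemokines that guide T cells into the T cell zone. GL7, one of the sort markers, is itself a sialylated carbohydrate. TFH cells were sorted with it and naïve and Treg cells without it. The part of this gate in the differences of sialic acid genes was not tested.

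Levels are background-corrected spot intensities that were averaged per probe, normalized by quantiles and scaled to a 75th percentile of 1500, in relative units (RU) with a floor of 20. A gene is represented by its brightest probe. Levels of different genes were measured with different probes and are not compared with each other. Differences between cell types are log2 differences from limma with cell type and day as terms, given as estimate ± standard error (SE, n = 2 arrays of each cell type, 1 per day). Their p values were adjusted with the Benjamini-Hochberg method over the 15764 genes that entered the test, and a gene is termed called where the adjusted p was below 0.05. They rest on the spread that is left after the terms for cell type and day, estimated over all arrays together. The spread between pools of the same cell type and day was not measured. Since RNA of sorted pools was measured, fewer cells with a transcript and less transcript per cell cannot be told apart.

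The raw signals had a 75th percentile of 482.5 to 878.2 per array, with 46.31% to 50.39% of the probes well above background. Foxp3 was at 37266 to 49262 RU in Treg and TFR cells and at 66 to 358 RU in the other cells, and all 4 CD4 T cell markers were well above background on every array. Of 10 B cell markers, 9 were well above background on at least 1 array, whereas Pax5 was at the floor of 20 RU on all. Summed B cell marker levels were 5852 to 7625 RU in naïve, 7758 to 16903 RU in TFH, 9905 to 10272 RU in Treg and 7833 to 8838 RU in TFR cells. The highest sum belonged to the TFH array of d25 and the lower TFH sum to that of d12. Of 8 myeloid markers, 5 were well above background on at least 1 array, with sums of 5692 to 6150 RU in TFH and 3741 to 4131 RU in TFR cells compared to 1213 to 1815 RU in the non-follicular cells. Cd68 accounted for most of this in TFH and TFR cells, while Cd14, Clec9a and Adgre1 were not well above background on any array. Sums of 4 markers of CD8 T and NK cells were 2882 to 6276 RU, and those of 4 markers of antibody-secreting cells 19993 to 47327 RU. The highest sum of both was in TFH cells. Single markers differed in this, since Klrb1c was highest in TFH cells (1484 and 3077 RU) but Cd8b1 in naïve cells (3614 and 3617 RU). Xbp1 (16064 to 42851 RU) made up most of the antibody-secreting sums, while Jchain was highest in naïve cells of d12 (7466 RU). The part of these levels in the differences below was not tested. Arrays of d12 were on 1 slide, those of d25 on 2, with naïve and TFH cells on one and Treg and TFR cells on the other. Day and slide cannot be told apart, and comparisons between Foxp3+ and Foxp3- cells cross slides at d25.

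In TFH cells, the selectin ligand genes moved in opposite directions, since Selplg fell while Fut7 and Gcnt1 rose, and both disialyl transferase genes St8sia1 and St8sia6 fell. Of the 9 genes, 3 were called higher (Fut7, Gcnt1, St3gal1) and 5 lower (Selplg, St3gal4, St3gal6, St8sia1, St8sia6) in TFH than in naïve cells. The 9 genes had been chosen with results of these data known, so that these counts are a description. Among all genes tested, 46.5% were called in this comparison, 20.9% higher and 25.6% lower. The median absolute log2 difference was 1.73 for the 9 genes and 0.44 for all genes tested, and the median difference -0.88 and -0.07. Without the TFH array of d25, which had the highest B cell marker sum, 7 of the 9 genes were called.

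The same 3 genes were called higher and the same 5 lower in TFR than in Treg cells. Of all genes tested, 39.6% were called here, 18.7% higher and 20.9% lower. The median absolute log2 difference was 1.69 for the 9 genes and 0.38 for all genes tested. St6gal1 alone was not called in either comparison.

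**Figure D1:**
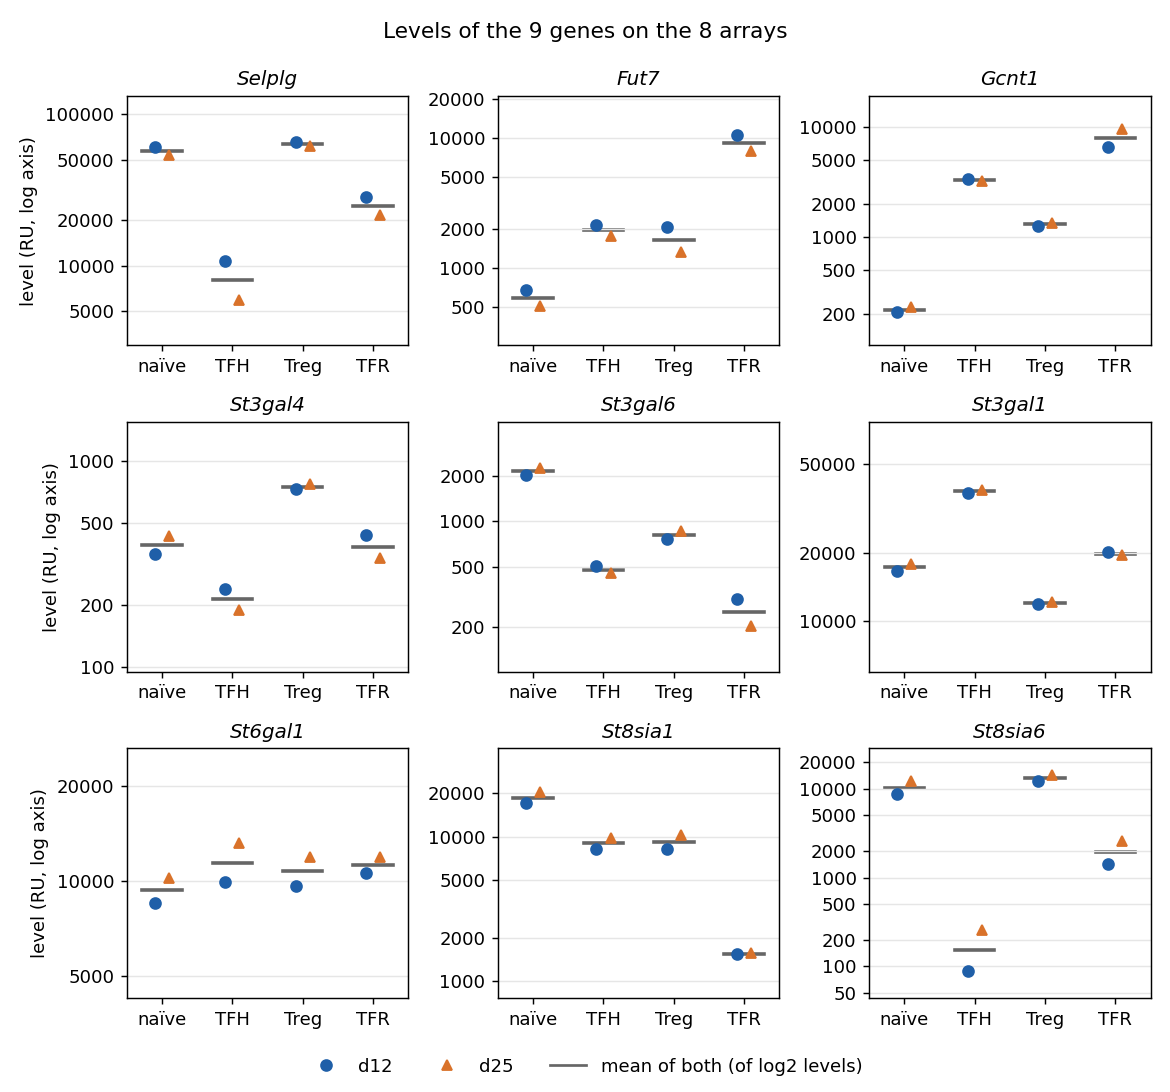
Level of each gene (RU, log axis with its own range per gene) in naïve, TFH, Treg and TFR cells; circles are the d12 arrays, triangles the d25 arrays, and bars the mean of both log2 levels. Selplg was lowest in TFH cells, Fut7 and Gcnt1 were highest in TFR cells, and St6gal1 was between 8538 and 13179 RU on all 8 arrays.

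Selplg (probe on chromosome 5, 114267807 to 114267834 of build NCBI37, a span shorter than those listed for the other probes) measured 60795 RU at d12 and 53821 RU at d25 in naïve cells, and 65821 and 61469 RU in Treg cells. TFH cells had only 10702 and 5963 RU, and TFR cells were intermediate with 28190 and 21737 RU. The order of the cell types from high to low was thus Treg, naïve, TFR and TFH cells, without overlap between neighbours, although Treg and naïve cells were not called different (0.15 ± 0.20, adjusted p = 0.682, 95% interval -0.37 to 0.67). TFR cells held more Selplg than TFH cells (1.63 ± 0.20, adjusted p = 0.00768). The fall from naïve to TFH cells was -2.51 at d12 and -3.17 at d25, and that from Treg to TFR cells -1.22 and -1.50. A second probe of Selplg, 1 of 2 on the array, gave -3.18 ± 0.15 (adjusted p = 0.000252) for TFH and -1.68 ± 0.15 (adjusted p = 0.00222) for TFR cells. With the brighter probe, the call between Treg and TFR cells was lost without the TFR array of d12 (adjusted p = 0.0613), the TFR array of d25 (0.0612) or the Treg array of d25 (0.0542), and without the filter on dim genes (0.0503). The call between TFR and TFH cells was lost without the TFR array of d12 (0.0742) or of d25 (0.0675).

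Fut7 (chromosome 2, 25281802 to 25281861), which codes for the enzyme that finishes sialyl Lewis x, measured 679 and 507 RU in naïve cells (d12 and d25, as in all pairs below), while TFH cells had 2148 and 1766 RU. Treg cells had 2075 and 1319 RU, and TFR cells 10611 and 8011 RU. TFR cells stood above all others, while the levels of TFH and Treg cells overlapped. Fut7 rose by 1.73 ± 0.12 from naïve to TFH cells (adjusted p = 0.000603) and by 2.48 ± 0.12 from Treg to TFR cells (adjusted p = 0.000566). It was also higher in Treg than in naïve cells by 1.50 ± 0.12 (adjusted p = 0.00343), and it was higher in TFR than in TFH cells by 2.24 ± 0.12 (adjusted p = 0.000899). These calls of Fut7 held under each of the 18 alternatives to the processing. A second, dimmer probe gave 1.94 ± 0.21 for TFH and 2.61 ± 0.21 for TFR cells (adjusted p = 0.00217 and 0.00174), but it was not well above background on either array of naïve cells.

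Gcnt1 (chromosome 19, 17400787 to 17400846), the branching enzyme, measured 210 and 233 RU in naïve cells, the lowest of the 4 cell types. TFH cells had 3368 and 3225 RU, Treg cells 1271 and 1348 RU, and TFR cells 6550 and 9516 RU. None of the 4 cell types overlapped, in the order TFR, TFH, Treg and naïve cells, with 35.7-fold between the means of the first and the last. From naïve to TFH cells Gcnt1 rose by 3.90 ± 0.16 (adjusted p = 0.000209), a 14.9-fold difference, and from Treg to TFR cells by 2.59 ± 0.16 (adjusted p = 0.001), a 6.03-fold difference. In Treg cells it was higher than in naïve cells by 2.56 ± 0.16 (adjusted p = 0.00223) and in TFR cells higher than in TFH cells by 1.26 ± 0.16 (adjusted p = 0.00855). The other 2 probes of Gcnt1 gave 3.21 ± 0.33 and 3.32 ± 0.30 for TFH and 2.86 ± 0.33 and 2.82 ± 0.30 for TFR cells, all called. The former of these probes was not well above background on the naïve array of d12 (55 RU), and the latter on neither naïve array (50 and 26 RU).

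Promoters of Fut7 and Gcnt1 are shown because both genes rose in TFH, in Treg and in TFR cells. RefSeq promoter sequences (assembly GRCm38.p6) were at hand for 7 of the 9 genes, with 13 transcription starts, and 250 bases before each start were searched on both strands for CACCC, the core of Krüppel-like factor boxes, and for the T-box letters AGGTGTGA. CACCC was found before 11 of the 13 starts and before 52.0% of 32851 starts of all genes. Of the 13 starts, Gcnt1 and St6gal1 have 3 each, so that the starts are not independent, and an enrichment was not tested. AGGTGTGA was found before none of the 13 starts and before 1.12% of all. The windows below lie at chr2:25422992-25423241 on the plus strand for the first of 2 Fut7 starts and at chr19:17372845-17373094 on the minus strand for the first of 3 Gcnt1 starts. Capitals mark CACCC or its reverse complement GGGTG.
Fut7: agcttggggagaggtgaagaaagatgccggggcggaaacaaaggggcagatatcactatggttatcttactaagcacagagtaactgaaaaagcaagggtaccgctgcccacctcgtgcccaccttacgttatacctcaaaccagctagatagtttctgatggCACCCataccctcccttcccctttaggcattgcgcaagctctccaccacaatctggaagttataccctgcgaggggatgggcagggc
Gcnt1: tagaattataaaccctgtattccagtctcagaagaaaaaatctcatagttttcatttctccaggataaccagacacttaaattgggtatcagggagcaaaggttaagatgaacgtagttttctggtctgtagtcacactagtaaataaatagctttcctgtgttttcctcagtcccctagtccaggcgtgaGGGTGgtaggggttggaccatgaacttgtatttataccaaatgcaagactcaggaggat

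St3gal4 and St3gal6 (chromosome 9, 34854434 to 34854493, and chromosome 16, 58470722 to 58470781), the sialyltransferase genes of the sialyl Lewis x chain, fell in follicular cells. St3gal4 was dim throughout, with 354 and 432 RU for naïve, 238 and 190 RU for TFH, 725 and 768 RU for Treg and 434 and 338 RU for TFR cells. It was highest in Treg and lowest in TFH cells, and naïve and TFR cells overlapped. The difference was -0.88 ± 0.19 between TFH and naïve cells (adjusted p = 0.0189) and -0.96 ± 0.19 between TFR and Treg cells (adjusted p = 0.0177). Background correction with normexp moved the former to -0.58. Both were sensitive to single arrays, since the former was lost without the naïve array of d25 (adjusted p = 0.0868) or the TFH array of d25 (0.0871), and the latter without the Treg array of d12 (0.0728) or d25 (0.104) and without the TFR array of d12 (0.0562) or d25 (0.11). Without the filter on dim genes, both calls were lost as well (0.0892 and 0.0855).

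St3gal6 measured 2013 and 2250 RU for naïve, 757 and 866 RU for Treg, 503 and 455 RU for TFH and 308 and 203 RU for TFR cells. None of the cell types overlapped, and the order was the reverse of that of Fut7 at both ends, with naïve cells highest and TFR cells lowest. St3gal6 fell by 2.15 ± 0.22 on the log2 scale in TFH cells (adjusted p = 0.00188) and by 1.69 ± 0.22 in TFR cells (adjusted p = 0.00544), and both calls held under all 18 alternatives. It was also lower in Treg than in naïve cells (-1.39 ± 0.22, adjusted p = 0.0242).

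St3gal1 (chromosome 15, 66934515 to 66934574), the sialyltransferase gene of the unbranched O-glycan, measured 16705 and 17932 RU for naïve and 37212 and 38225 RU for TFH cells. Treg cells had 11903 and 12181 RU and TFR cells 20195 and 19573 RU. The days differed little, by at most 1.07-fold within a cell type, and no neighbours in the order TFH, TFR, naïve and Treg cells overlapped. St3gal1 rose by 1.12 ± 0.08 in TFH cells (adjusted p = 0.000806) and by 0.72 ± 0.08 in TFR cells (adjusted p = 0.00423), and TFR cells differed from TFH cells by -0.92 ± 0.08 (adjusted p = 0.00341). All 3 calls held under the 18 alternatives. The second probe of St3gal1 gave 1.17 ± 0.12, 0.90 ± 0.12 and -0.73 ± 0.12, respectively, all called. Fut7, Gcnt1 and St3gal1 were thus the genes of the set that rose in both follicular cell types.

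St6gal1 (chromosome 16, 23360037 to 23360096), the sialyltransferase gene of N-glycans, measured 8538 and 10254 RU for naïve, 9918 and 13179 RU for TFH, 9661 and 11974 RU for Treg and 10609 and 11924 RU for TFR cells. All neighbours overlapped, and the means of the cell types differed by at most 1.22-fold. The difference between TFH and naïve cells was 0.29 ± 0.09 (adjusted p = 0.06, 95% interval 0.04 to 0.53) and that between TFR and Treg cells 0.06 ± 0.09 (adjusted p = 0.624, 95% interval -0.18 to 0.31). The highest of the 8 levels was that of the TFH array of d25, which also had the highest B cell marker sum. Without this array the difference between TFH and naïve cells was 0.21. The part of other cells in this level was not tested. A second, dimmer probe of St6gal1, with 80 to 158 RU, was well above background on 7 of the 8 arrays and gave 0.00 ± 0.25 (adjusted p = 1) and -0.33 ± 0.25 (adjusted p = 0.346) in these comparisons.

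St8sia1 (chromosome 6, 142770079 to 142770138), which codes for GD3 synthase, measured 16966 and 20336 RU for naïve and 8212 and 9842 RU for TFH cells. Treg cells had 8219 and 10206 RU, while TFR cells had 1527 and 1551 RU. TFH and Treg cells overlapped, while TFR cells were 12.1-fold below naïve cells. The log2 difference was -1.05 ± 0.11 in TFH compared to naïve cells (adjusted p = 0.00186) and -2.57 ± 0.11 in TFR compared to Treg cells (adjusted p = 0.00048). It was -2.55 ± 0.11 in TFR compared to TFH cells (adjusted p = 0.000613) and -1.02 ± 0.11 in Treg compared to naïve cells (adjusted p = 0.00789). The first 3 of these calls held under all 18 alternatives.

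St8sia6 (chromosome 2, 13576941 to 13577000), whose product adds sialic acid to sialylated O-glycans, measured 8767 and 12057 RU for naïve and 12301 and 14199 RU for Treg cells. TFH cells had 88 and 259 RU, still well above background, and TFR cells 1408 and 2609 RU. The lowest signal well above background was 30.3 to 68.2 RU per array. Of the 9 genes it had the widest range, with 87.5-fold between the means of Treg and TFH cells, and also the widest difference between days, with 2.94-fold in TFH cells. The log2 difference between TFH and naïve cells was -6.64 at d12 and -5.54 at d25. Its estimate over both days, -6.09, ranged from -6.61 to -5.01 under the 18 alternatives. That between TFR and TFH cells ranged from 2.63 to 4.19. TFR cells lay below Treg cells (-2.79 ± 0.34, adjusted p = 0.00468) and above TFH cells (3.67 ± 0.34, adjusted p = 0.00353), and both calls held under all 18 alternatives. Treg and naïve cells were not called different (0.36 ± 0.34, adjusted p = 0.552, 95% interval -0.51 to 1.23), and this difference turned to -0.02 without the Treg array of d12.

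Promoters of St8sia1 and St8sia6 are shown for contrast, since both genes fell in both follicular cell types. Their windows lie at chr6:142964453-142964702 and at chr2:13793521-13793770, both on the minus strand of GRCm38.p6 (RefSeq), with CACCC or GGGTG in capitals. The letters were found in the windows of the rising and of the falling pair alike.
St8sia1: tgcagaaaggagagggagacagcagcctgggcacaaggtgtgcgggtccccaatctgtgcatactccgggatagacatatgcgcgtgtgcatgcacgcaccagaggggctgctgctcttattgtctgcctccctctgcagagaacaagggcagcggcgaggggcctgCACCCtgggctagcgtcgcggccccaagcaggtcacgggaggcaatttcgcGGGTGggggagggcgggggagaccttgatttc
St8sia6: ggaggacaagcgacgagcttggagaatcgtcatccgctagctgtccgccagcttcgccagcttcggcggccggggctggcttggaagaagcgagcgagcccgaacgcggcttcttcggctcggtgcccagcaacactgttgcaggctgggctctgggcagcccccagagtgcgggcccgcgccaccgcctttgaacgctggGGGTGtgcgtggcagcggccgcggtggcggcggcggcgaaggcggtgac

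**Figure D2:**
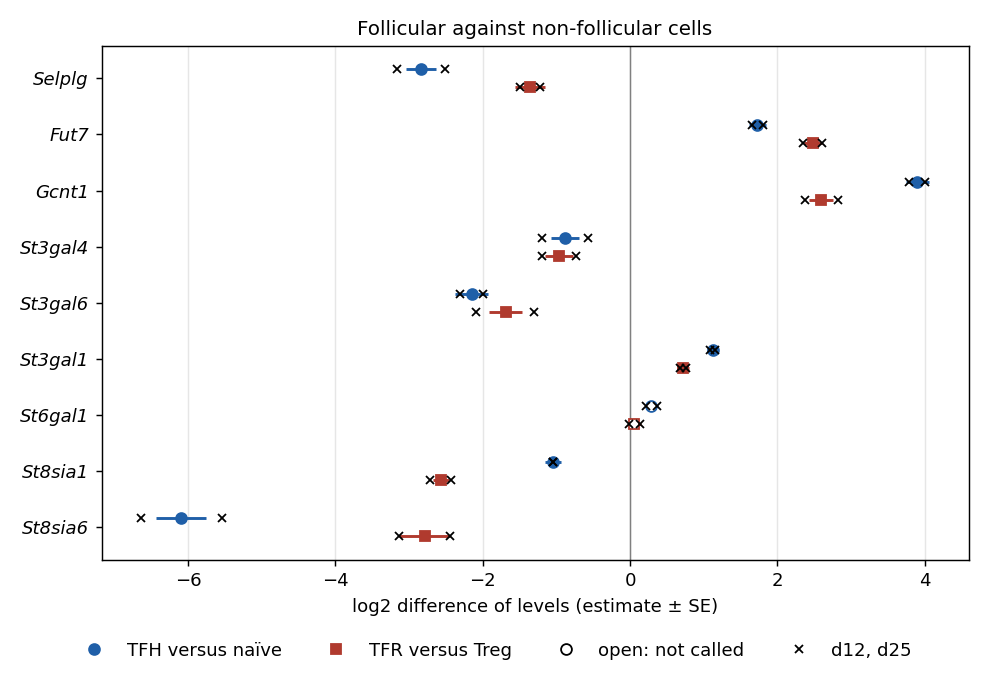
Log2 difference of the level between TFH and naïve cells (circles) and between TFR and Treg cells (squares), as estimate ± SE from limma, with crosses for the single differences at d12 and d25 and open symbols for differences that were not called. Selplg, St3gal4, St3gal6, St8sia1 and St8sia6 lie left of 0 and Fut7, Gcnt1 and St3gal1 right of 0 in both comparisons.

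Whether the follicular change differed between Foxp3+ and Foxp3- cells was tested by subtracting the log2 difference between TFH and naïve cells from that between TFR and Treg cells. TFH cells were sorted as GL7+ and TFR cells as GL7+/-. Foxp3 and GL7 status thus cannot be told apart here or between TFR and TFH cells. Selplg and St8sia6 fell less in Foxp3+ than in Foxp3- cells, Gcnt1 rose less, and St8sia1 fell more. Of the 9 genes, 4 were called, 2 higher and 2 lower, compared to 8.49% of all genes tested, 4.03% higher and 4.46% lower. The difference was 1.48 ± 0.28 for Selplg (adjusted p = 0.0454), 3.30 ± 0.48 for St8sia6 (adjusted p = 0.0229), -1.30 ± 0.23 for Gcnt1 (adjusted p = 0.0371) and -1.53 ± 0.15 for St8sia1 (adjusted p = 0.00991). For Fut7 it was 0.75 ± 0.16 and not called (adjusted p = 0.0616, 95% interval 0.32 to 1.17). Each of the 4 genes had the same sign at both days. The other 2 probes of Gcnt1 gave only -0.35 ± 0.47 and -0.51 ± 0.43 (adjusted p = 0.703 and 0.527), and normexp background correction moved the value of its brightest probe to -0.72, whereas the second probe of Selplg gave 1.51 ± 0.21 (adjusted p = 0.0209). The call was lost under 13 of 18 alternatives for Gcnt1 (adjusted p up to 0.156), 10 for Selplg (0.184), 9 for St8sia6 (0.127) and 3 for St8sia1 (0.0564). Without any single naïve, Treg or TFR array, 0 or 1 of the 9 genes was called, and without either TFH array 3 were.

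TFR and TFH cells differed in 8 of the 9 genes. Selplg, Fut7, Gcnt1, St3gal4 and St8sia6 were higher and St3gal6, St3gal1 and St8sia1 lower in TFR cells, compared to 22.1% of all genes tested that were called, 11.6% higher and 10.5% lower. Within the slide of d12, the differences were 1.40 for Selplg, 2.30 for Fut7, 0.96 for Gcnt1 and -2.43 for St8sia1, with the sign of the estimates over both days. For St3gal4 and St3gal6 the differences were small (0.85 ± 0.19, adjusted p = 0.0388, and -0.93 ± 0.22, adjusted p = 0.0416), and they were lost under 9 and 10 of the 18 alternatives (adjusted p up to 0.215 and 0.174), among them the omission of either Treg array, of either TFH array and of the TFR array of d25. The call of St3gal4 was also lost without the TFR array of d12 (0.215), and that of St3gal6 without either naïve array (0.0671). With the slide as a block 4 of the 9 genes were called, and over all 15764 genes tested the calls fell from 3486 to 1349. The block left Selplg and Gcnt1 at adjusted p = 0.0502 and 0.0509. Normexp background correction moved the St3gal4 difference to 0.55, and the omission of the TFR array of d25 moved that of St3gal6 to -0.60. St6gal1 differed by -0.02 ± 0.09 (adjusted p = 0.884, 95% interval -0.27 to 0.22).

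Among the non-follicular cells, Treg cells held more Fut7 and Gcnt1 and less St3gal6, St3gal1 and St8sia1 than naïve cells. These 2 higher and 3 lower genes compare to 9.88% of all genes tested that were called, 5.89% higher and 3.98% lower. St3gal4 narrowly missed the threshold (0.93 ± 0.19, adjusted p = 0.0501, 95% interval 0.44 to 1.43). St3gal1 differed by -0.52 ± 0.08 (adjusted p = 0.026), while its second probe gave -0.46 ± 0.12 and was not called (adjusted p = 0.0899). With the slide as a block 2 of the 9 genes were called, and over all 15764 genes tested the calls fell from 1557 to 523. The other calls were also lost without any single naïve or Treg array. The calls lost in this way were those of St3gal6 (adjusted p = 0.0912 to 0.146 without 1 of these arrays), St3gal1 (0.119 to 0.165, and 0.0706 without either TFR array) and St8sia1 (0.0589 to 0.076).

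**Figure D3:**
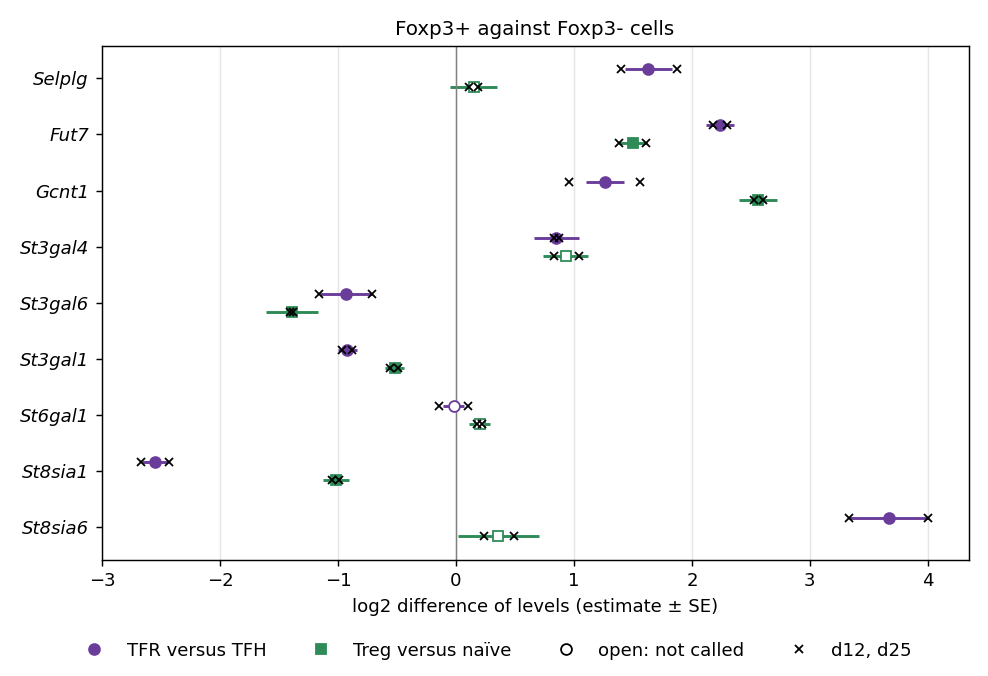
Log2 difference of the level between TFR and TFH cells (circles) and between Treg and naïve cells (squares), as estimate ± SE, with crosses for d12 and d25 and open symbols for differences that were not called. Fut7 and Gcnt1 were higher and St3gal6, St3gal1 and St8sia1 lower in the Foxp3+ cells of both comparisons, while Selplg, St3gal4 and St8sia6 were called between TFR and TFH cells and not between Treg and naïve cells.

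Between d25 and d12, 0 of the 9 genes were called by limma, compared to 0.0698% of all genes tested. At an unadjusted p below 0.05, there were 5 of the 9 and 4545 of all genes. The largest differences were 0.78 ± 0.24 for St8sia6 (adjusted p = 0.126) and -0.44 ± 0.08 for Fut7 (adjusted p = 0.0745). Levels of St6gal1, St8sia1 and St8sia6 at d25 were above those at d12 in all 4 cell types, and levels of Selplg and Fut7 below.

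The other genes of the pathway were taken from 6 lists of 63 genes, of which 50 were tested and 13 were too dim in every cell type. In TFH compared to naïve cells, 14 rose, 15 fell and 21 were not called, and in TFR compared to Treg cells 13 rose, 15 fell and 22 were not called. These are 58.0% and 56.0% of the genes tested, beside the 46.5% and 39.6% over all genes. The median absolute log2 difference was 0.60 and 0.58. Between TFR and TFH cells 8 were higher and 8 lower, 32.0% of those tested beside 22.1% over all genes. Between Treg and naïve cells 6 were higher and 1 lower, 14.0% beside 9.88%. For the difference of the follicular changes 2 were higher and 3 lower, 10% beside 8.49%. In the single lists below, the shares called in TFH and TFR cells are to be read against the same 46.5% and 39.6%. They were 57.1% and 78.6% for O-glycan synthesis, 50% and 50% for tyrosine sulfation, 55.6% and 44.4% for fucose, 50% and 62.5% for sialic acid supply and removal and 87.5% and 37.5% for the other sialyltransferases, each out of at most 14 genes.

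Of the 14 tested genes that start and extend the O-glycan, 2 rose and 6 fell in TFH cells and 3 rose and 8 fell in TFR cells. Galnt10, one of the enzymes that attach the first sugar, measured 31423 and 33060 RU for naïve and 24109 and 26300 RU for Treg cells. TFH cells had 4098 and 4472 RU and TFR cells 4002 and 4959 RU, so that both follicular cell types shared 1 range (-2.91 ± 0.10, adjusted p = 0.000153, and -2.50 ± 0.10, adjusted p = 0.000456). Galnt4, a further member of this enzyme family, fell too (-0.85 ± 0.10 and -1.01 ± 0.10, adjusted p = 0.00273 and 0.00272). B3gnt2, which extends lactosamine chains, rose by 1.03 ± 0.10 and 0.57 ± 0.10 (adjusted p = 0.00151 and 0.0111). C1galt1, which makes the chain that GCNT1 branches and which, like Gne, Cmas and Fut4 below, was named after its values were seen, fell in both (-0.42 ± 0.09 and -0.88 ± 0.09, adjusted p = 0.0201 and 0.0035).

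Among the 6 genes of tyrosine sulfation, a modification that PSGL-1 needs to bind P-selectin, 2 rose (Papss1, Slc35b2) and 1 fell (Tpst2) in TFH cells and 2 rose (Papss2, Slc35b2) and 1 fell (Slc35b3) in TFR cells. Tpst2, a sulfotransferase gene, measured 6278 and 5514 RU for naïve and 3099 and 2668 RU for TFH cells (-1.03 ± 0.08, adjusted p = 0.00103). Treg cells had 6550 and 5308 RU and TFR cells 5538 and 4453 RU (-0.25 ± 0.08, adjusted p = 0.0731). The fall of Tpst2 was called smaller in Foxp3+ than in Foxp3- cells (0.79 ± 0.12, adjusted p = 0.0264), a call lost when any 1 of the 8 arrays was omitted (adjusted p from 0.0524 to 0.131).

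Of the 9 tested genes of fucose supply and other fucosyltransferases, 3 rose (Gmds, Fut4, Fut8) and 2 fell (Tsta3, Slc35c1) in TFH cells and the same 3 rose and Slc35c1 fell in TFR cells. Fut8, which adds the core fucose of N-glycans, measured 603 and 645 RU for naïve and 2592 and 2110 RU for TFH cells (1.91 ± 0.16, adjusted p = 0.00104). Treg cells had 655 and 790 RU and TFR cells 1058 and 1178 RU (0.63 ± 0.16, adjusted p = 0.0318), and the difference of both changes was -1.27 ± 0.22 (adjusted p = 0.0365, and 0.0997 to 0.166 without any 1 naïve, Treg or TFR array). Fut4, a further leukocyte fucosyltransferase gene, was not well above background in naïve or Treg cells and was at most at 219 RU elsewhere. Taking the lowest signal well above background of each array as the level of the dim side, this was at least 1.64-fold higher in TFH than in naïve cells (adjusted p = 0.00183) and at least 3.19-fold higher in TFR than in Treg cells (adjusted p = 0.00152).

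Of the 8 tested genes of sialic acid supply and removal, 1 rose (Neu3) and 3 fell (Gne, Cmas, Cmah) in TFH cells, and in TFR cells Neu1, a lysosomal sialidase gene, fell in addition. Cmah, which converts the activated sialic acid Neu5Ac to Neu5Gc, measured 3380 and 3589 RU for naïve and 526 and 377 RU for TFH cells (-2.97 ± 0.17, adjusted p = 0.00038). Treg cells had 2167 and 1941 RU and TFR cells 932 and 981 RU (-1.10 ± 0.17, adjusted p = 0.0084), a fall that was smaller by 1.87 ± 0.24 (adjusted p = 0.0172, and 0.0586 to 0.0897 without any 1 naïve, Treg or TFR array). Neu3, a sialidase of gangliosides, rose by 1.80 ± 0.09 and 1.73 ± 0.09 in TFH and TFR cells (adjusted p = 0.000325 and 0.000764), up to 3509 and 4996 RU in TFR cells. Gne and Cmas, which make and activate sialic acid, fell in TFH (-0.49 ± 0.09 and -0.63 ± 0.14) and in TFR cells (-0.38 ± 0.09 and -0.76 ± 0.14).

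Of the 8 tested other sialyltransferase genes, 5 rose and 2 fell in TFH cells and 3 rose and 5 were not called in TFR cells. St6galnac6, an enzyme gene of gangliosides, measured 143 and 168 RU for naïve and 266 and 280 RU for Treg cells, but 1777 and 1479 RU for TFH and 2379 and 2306 RU for TFR cells (10.5-fold and 8.58-fold, adjusted p = 0.000202 and 0.000535). St3gal5, which makes the ganglioside GM3 that ST8SIA1 extends, rose by 2.82 ± 0.28 and 2.10 ± 0.28 (adjusted p = 0.00171 and 0.00577), opposite to St8sia1. St3gal2, which shares its O-glycan substrate with ST3GAL1, measured 1422 and 1696 RU for naïve and 9693 and 9713 RU for TFH cells (2.64 ± 0.11, adjusted p = 0.000208). In Foxp3+ cells it rose by 0.59 ± 0.11 (adjusted p = 0.0144), and the difference of both changes was -2.06 ± 0.15 (adjusted p = 0.00564). St6galnac1 fell by 1.69 ± 0.32 in TFH cells (adjusted p = 0.0119), a call lost without the naïve array of d12 (adjusted p = 0.0735).

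Among other carriers of selectin ligands, Cd44, a hyaluronan receptor, rose by 2.56 ± 0.08 in TFH and by 0.97 ± 0.08 in TFR cells (adjusted p = 0.000139 and 0.00197), and the changes differed by -1.59 ± 0.11 (adjusted p = 0.00532). The carriers Spn, Glg1 and Cd24a were called in neither comparison (adjusted p from 0.0865 to 0.923).

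Several of these genes have further probes that moved less. When all probes of a gene were averaged, the differences in TFH and TFR cells became -1.46 and -1.25 for Galnt10, 1.33 and 1.16 for St6galnac6, and 1.56 and 0.34 for Cd44, that of St6galnac1 in TFH cells -0.26 and that of St3gal2 in TFR cells 0.29. This averaging ended the calls of Cd44 (adjusted p = 0.159) and St3gal2 (0.482) in TFR cells, of St6galnac1 in TFH cells (0.325), and of the difference of both changes of St3gal2 (-1.78, adjusted p = 0.0765). Among the changes from Treg to TFR cells, Fut8 lost its call without either naïve array (adjusted p = 0.0617) and without any single Treg or TFR array (0.0734 to 0.168), and St3gal2 without any single Treg or TFR array (0.0632 to 0.0975). B3gnt2 lost it without the Treg array of d25 (0.073) or the TFR array of d12 (0.0513) or d25 (0.0792), and Cmah without the Treg array of d12 (0.0607) or d25 (0.0544) or the TFR array of d12 (0.0669).

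**Figure D4:**
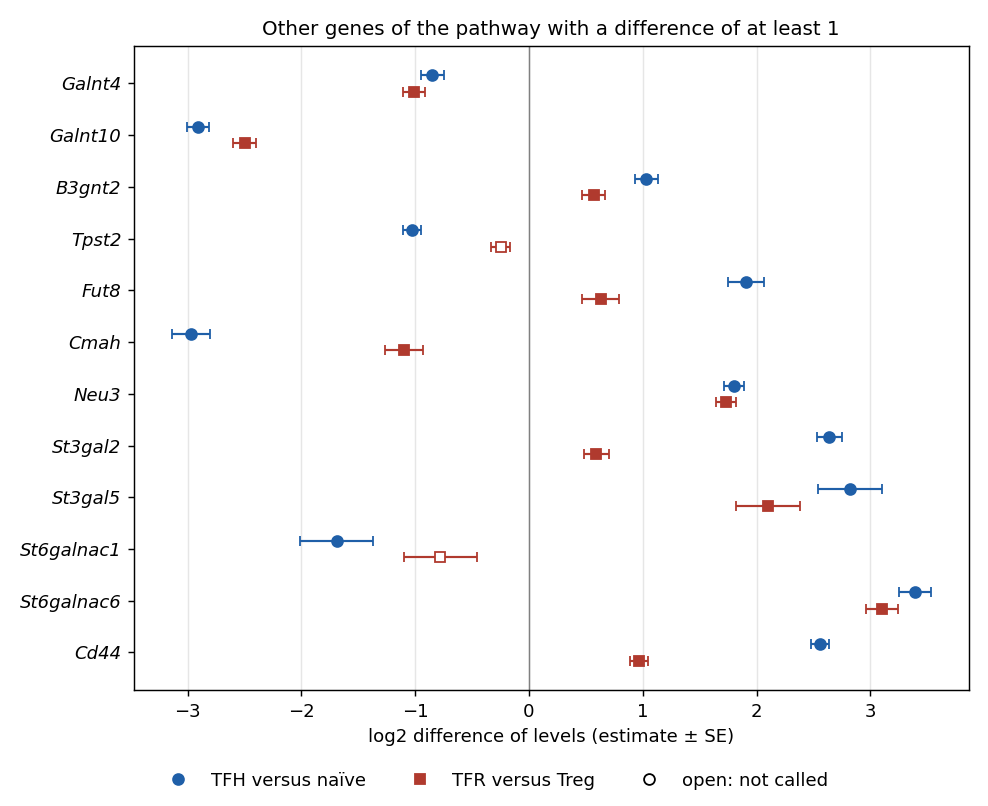
Log2 difference of the level between TFH and naïve cells (circles) and between TFR and Treg cells (squares) for the other pathway genes reported here that were called with an absolute difference of at least 1 in one of both comparisons; bars are SE and open symbols were not called. Each of the genes shown had the same sign in both comparisons.

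For each of the 9 genes, the tested genes with the most similar pattern were sought by Pearson's r of the log2 levels over the 8 arrays, among 13298 other genes that were well above background on all arrays. Arrays of a cell type share most of their pattern, so that high values are common in such a search and are given without a test. Ppm1j was most similar to Selplg (r = 0.998), Ifitm2 and Pglyrp1 to Fut7 (0.9889 and 0.9873), Kif13a and Asxl1 to Gcnt1 (0.9951 and 0.9946), and Rexo2 to St3gal4 (0.9825). Vipr1 was most similar to St3gal6 (0.9946), Tomm6 to St3gal1 (0.9931), Hbs1l to St6gal1 (0.9607), Zfp354c and Vcan to St8sia1 (0.9944 and 0.9918), and Ndrg2 to St8sia6 (0.9947). The lowest of these belonged to St6gal1, the gene with the smallest range.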

How the data were processed

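RNA of sorted cells was hybridized by the authors to 1-colour Agilent arrays, 1 array for each of 4 cell types at d12 and d25, and read with Agilent Feature Extraction 10.7.3.1 per the file headers. The deposited scanner files hold the processed signal intensity of each spot, after the authors' background correction, with probe positions of build NCBI37. A series table of intensities that the authors had normalized was also deposited, and its log2 values served as an alternative. Signals of a probe (usually 4 spots) were averaged here after spots that were flagged, lay beyond 1.42 interquartile ranges or had a pixel CV above 0.5 had been left out, and 86.45% to 89.18% of the spots remained. Arrays were normalized by quantiles and scaled to a 75th percentile of 1500 RU with a floor of 20. The log2 levels correlated with log2 values of the authors' table with r of at least 0.9994. A probe was well above background where more than 50.0% of its spots were marked so by the scanner software.

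A gene is represented by the probe with the highest mean log2 level and entered the test if some cell type had this probe well above background at both days, which held for 15764 of 29924 gene names. Differences were tested with limma 3.58.1 (R 4.3.3), lmFit and eBayes, fitting cell type plus day (3 residual and 1.89 prior degrees of freedom). The script was tested on simulated data. Intervals of differences are 95% intervals. The number of arrays limits the precision. The one-way ANOVA with Tukey's test of the methods could not be run on 1 array per cell type and day, so that arrays of both days were combined.

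The 9 genes, the pathway and marker lists and the tests were chosen with earlier results of these data known. All 9 genes are described, and a pathway gene was named where it was called with an absolute log2 difference of at least 1 between TFH and naïve CD4 T or between TFR and Treg cells, while others were named after their values were seen. The result for 1 gene that met this rule is not reported here. The closing section gives 18 alternatives to the processing, which for the pathway genes were chosen after seeing the data. Promoter sequences are from RefSeq (GRCm38.p6), and motifs were searched with Python 3.11.15.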

Additional observations from a re-analysis of the deposited data

Results flagged for a closer look

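For 9 genes the log2 change between Treg and TFR cells differed from that between naïve and TFH cells in a direct test with limma. They were 4 of the 9 genes of the set and 5 of the 50 tested pathway genes. The latter are 10%, near the 8.49% called over all genes tested. All 9 flagged genes were different in size rather than in sign. The difference of both changes was 1.48 for Selplg (adjusted p = 0.0454), 3.30 for St8sia6 (0.0229) and 1.87 for Cmah (0.0172), genes that fell less from Treg to TFR cells. It was 0.79 for Tpst2 (0.0264), which fell in TFH cells and was not called in TFR cells. It was -1.30 for Gcnt1 (0.0371), -1.27 for Fut8 (0.0365), -2.06 for St3gal2 (0.00564) and -1.59 for Cd44 (0.00532), genes that rose less from Treg to TFR cells. It was -1.53 for St8sia1 (0.00991), which fell more. Since TFH cells were sorted as GL7+ and TFR cells as GL7+/-, Foxp3 and GL7 status cannot be told apart. Of the 18 alternatives, the call was lost under 13 for Gcnt1, 10 for Selplg, 10 for Tpst2, 9 for St8sia6, 8 for Fut8, 7 for Cmah, 3 for St8sia1, 1 for St3gal2 and 0 for Cd44.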

How the results depend on the processing

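Each result was recomputed under 18 alternatives (16 for the days), 8 of which left out 1 array. Over all single-gene results, 1472 kept their direction and their side of the threshold, 139 lost a call, 21 gained one and 24 changed sign. Without quantile normalization and with the authors' table, the number of the 9 genes called stayed within 1.5 times in every comparison. Calls fell to 4 of the 9 (and 7 of the other pathway genes) between TFR and TFH cells without the filter on dim genes, and to 4 (and 6) with slide as a block. Over all genes, 1649 were called without this filter and 1349 with this block, compared to 3486 in the main fit. With this block, 2 of the 9 and 3 pathway genes were called between Treg and naïve cells and 1 and 3 for the difference of the follicular changes, where 1 of the 9 was also called without the dim filter and without the day term. Over all genes, the block left 523 and 691 called, compared to 1557 and 1339. A prior with an intensity trend gave 12 pathway genes between Treg and naïve cells and, between days, 2 of the 9 and 6 pathway genes. Normexp gave 5 pathway genes between days (935 of all genes, compared to 11, and 1095 with the trend), and a floor of 100 gave 9 pathway genes for the difference of the changes.

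When single arrays were left out, the calls among the 9 genes ranged from 7 to 8 for TFH against naïve cells, 6 to 8 for TFR against Treg, 5 to 7 for TFR against TFH, 2 to 5 for Treg against naïve, 0 to 3 for the difference of the changes and 0 to 0 between days. Those among the other pathway genes ranged from 20 to 27, 13 to 31, 3 to 16, 3 to 9, 2 to 6 and 0 to 0, respectively. Over all genes, the fewest calls were 4309 of 7332, 2494 of 6249, 942 of 3486, 416 of 1557, 292 of 1339 and 0 of 11.

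The results that changed sign were not called, and ranges give the lowest and highest value when single arrays were left out. Between TFR and Treg cells, St6gal1 turned to -0.13 with all probes averaged and ranged from -0.02 (without the TFR array of d12) to 0.14. Between TFR and TFH cells it turned to 0.03 with slide as a block and ranged from -0.10 to 0.06 (without the TFH or the TFR array of d25). Between Treg and naïve cells, Selplg ranged from -0.03 (without the Treg array of d25) to 0.34 and St8sia6 from -0.02 (without that of d12) to 0.74. The difference of the changes ranged from -0.33 to 0.16 for St3gal4 and from -0.15 to 0.02 for Neu3, and was 0.11 for Neu3 and 0.05 for St6galnac6 with normexp and -0.42 for St6galnac1 with all probes averaged. Between days, St3gal1 turned to -0.07 without quantile normalization and Gcnt1 to -0.05 with all probes averaged, St3gal4 ranged from -0.20 to 0.02 and St3gal6 from -0.19 to 0.07. The cause was not tested. The fit with day as a term compares cell types within a day, since each cell type has 1 array per day. Foxp3+ and Foxp3- cells were on different slides at d25, so that they are compared within a slide only at d12. Without the day term, 8, 8, 8 and 6 of the 9 genes were called in the 4 comparisons of cell types and 1 for the difference of the changes. With 1 array per cell type and day, a day effect of a single cell type cannot be tested, and 13 of the 63 other pathway genes were too dim to be tested.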
